A study of Mus musculus with 2 samples.

Results

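Signals of 10 antioxidant and redox genes were examined in 2 samples of Lin-c-kit+Sca1+ (LSK) cells, the mouse bone marrow fraction that lacks lineage antigens, carries the receptor Kit and the antigen Sca-1, and holds most haematopoietic stem cells together with early progenitors. The genes are the superoxide dismutases Sod1 and Sod2, catalase (Cat), the glutathione peroxidase gene Gpx1, the peroxiredoxins Prdx1 and Prdx2, thioredoxin (Txn1), its inhibitor Txnip, the haem oxygenase gene Hmox1 and the transcription factor gene Nfe2l2, also called Nrf2. They were taken by name, with every probe set annotated to them, which gave 15 probe sets of the 12422 on the array besides controls. Both samples belong to 1 group and are called here, after their titles, sample 1 and sample 2. No treatment, strain or age is named in the labels. Separate mice or sorts are not stated either, and the spread between the 2 samples may thus be technical. Differences were described and not tested, and the number of arrays limits the precision.

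Cells make superoxide and hydrogen peroxide as by-products of respiration and through NADPH oxidases. Superoxide dismutases turn superoxide into hydrogen peroxide, which catalase, glutathione peroxidases and peroxiredoxins then remove. Glutathione peroxidases and peroxiredoxins use electrons that come from NADPH by way of glutathione or thioredoxin. Haematopoietic stem cells are known to hold low levels of these oxidants, and loss of FoxO factors or of the kinase Atm in mice raises the levels and impairs the cells. Nfe2l2 is held down by Keap1 and, when released, switches on many of the protective genes through antioxidant response elements.

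Each value below is a quantile-normalized signal on a linear scale, given for sample 1 and then sample 2. Signals under 20 were set to that floor before log2, because low signals have no reliable order, and a fold against the floor is written "at least". A probe set counted as above the control level where it exceeded the 90th percentile of the 15 probe sets for bacterial genes on its own array, 12.1 in sample 1 and 8.91 in sample 2. Of the sorting antigens, Kit had 25.8 and 19.4, next to the floor, and Ly6a (Sca-1) was not analysed here. The myeloid antigen gene Itgam, which lineage depletion should remove, had 3.65 and 1.5, below both control levels. Of the 12 neutrophil and myeloid granule markers in its list, 9 were above them, against 57.0% of 8251 genes. That list includes genes such as Mpo and Elane and does not separate mature cells from progenitors.

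In both samples all 10 genes had at least 1 probe set above the control level, against 57.0% of the 8251 genes that had a probe set of their own. By probe set the count was 13 of 15, against 49.3% of all probe sets. The exceptions were 1 of 3 probe sets for Prdx2 and 1 of 2 for Cat. The bacterial level was a permissive one, since 9 of 32 measured genes specific to organs such as liver, brain, lens and testis also passed it. Against the 90th percentile of the probe sets of those organ genes (47.2 in sample 1 and 26.8 in sample 2), a level chosen after the data were seen, 8 of the 10 genes remained and Sod2 and Nfe2l2 did not. Of all 8251 genes, 22.7% passed that level.

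**Figure D1:**
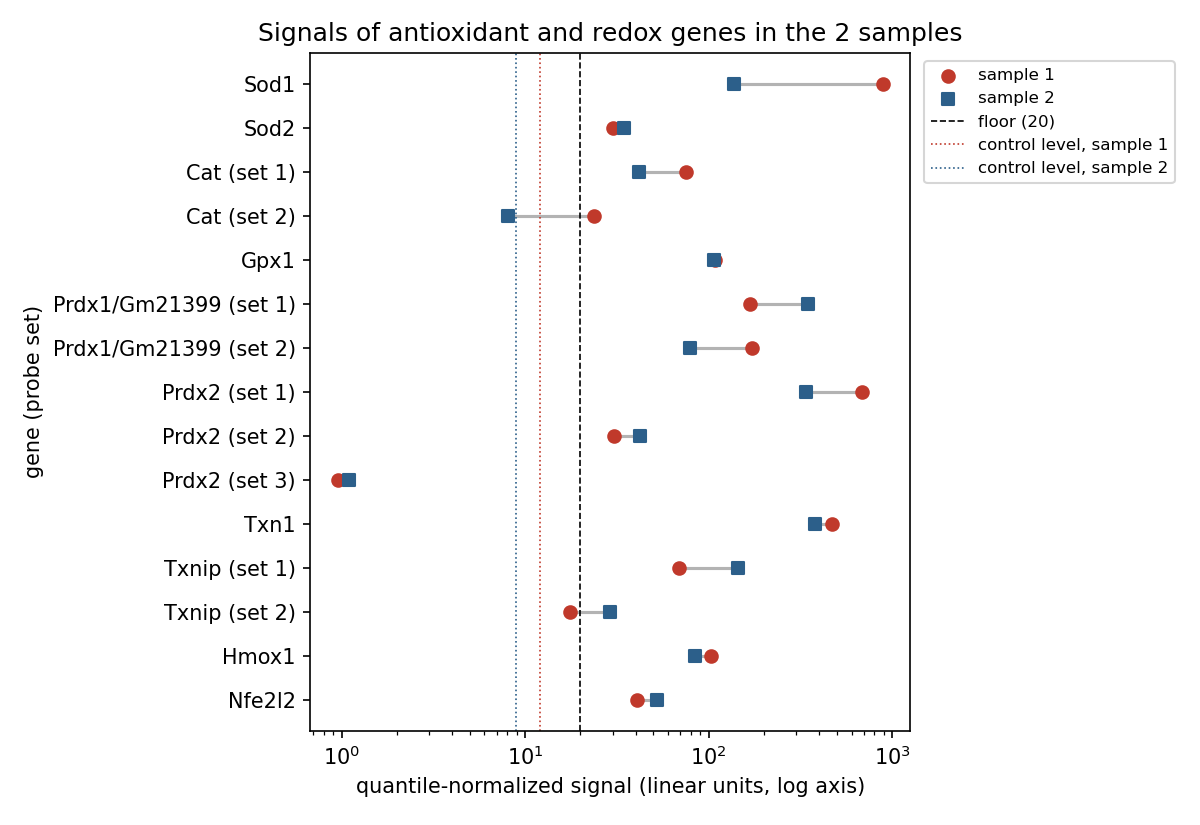
Signal of each of the 15 probe sets in sample 1 (circles) and sample 2 (squares) on a log axis, with the floor of 20 (dashed) and each sample's control level (dotted). Where a gene has several probe sets they are numbered from the strongest. The Sod1 points lie farthest apart, at 887 and 137, and those of Gpx1 nearly coincide.

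Sod1, the copper and zinc superoxide dismutase of the cytosol, differed between the samples more than any other of the 10 genes. Its only probe set gave 887 in sample 1, against 137 in sample 2. Sod1 was thus well above the control level in both samples and 6.46-fold higher in sample 1 (log2 difference 2.69, mean log2 signal 8.45 ± 1.90, SD, n = 2). Of the 6118 probe sets that exceeded the control level in each sample, 43 (0.703%) were as far apart. The difference stayed between 2.44 and 2.77 on the log2 scale under the other scalings, floors and the offset of 32 that were tried. Sod2, the manganese enzyme of mitochondria, had 30.2 and 34.8, a difference of -0.20 on the log2 scale (mean 5.02 ± 0.14, SD, n = 2). Sod2 thus had no difference of the kind seen for Sod1, and its signal in sample 1 was below the organ gene level of 47.2. Ccs, the chaperone that delivers copper to Sod1, had 28.6 and 49.8 by the strongest probe set of 5, and none of the other 4 was above the control level in both samples.

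Catalase and Gpx1, which both remove hydrogen peroxide, gave one moderate and one very small difference. Cat, the enzyme of peroxisomes, had 75.5 and 41.7 by its stronger probe set, 1.81-fold higher in sample 1 (mean log2 5.81 ± 0.61, SD, n = 2). Its weaker probe set had 23.6 and 8.05, below the control level in sample 2 and at least 1.18-fold higher in sample 1, so both pointed the same way. Gpx1, the selenium-containing glutathione peroxidase of the cytosol, had 109 and 107 (mean log2 6.75 ± 0.019, SD, n = 2). That was the smallest difference among the 10 genes by their strongest probe sets. Its sign turned with median-centring, at -0.033, and was 0.10 as deposited, so Gpx1 has no direction here.

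The peroxiredoxins, abundant thiol peroxidases that thioredoxin recharges, had probe sets that contradicted each other. Both probe sets for Prdx1 also name Gm21399, which the RefSeq gene table lists as a pseudogene with the synonym Prxi-ps2, so their signals cannot be given to Prdx1 alone. The stronger one had 167 and 349, 2.09-fold higher in sample 2, and the weaker one had 173 and 79.5, 2.18-fold higher in sample 1. Of 361 genes with at least 2 probe sets above the control level and the floor, Prdx1 included, 166 (46.0%) had probe sets of opposite sign, but only 4 (1.11%) had them opposite with each at least 2-fold. Prdx1 was one of those 4. Prdx2, which is abundant in red cells, had 686 and 338 by its strongest probe set, 2.03-fold higher in sample 1 (mean log2 8.91 ± 0.72, SD, n = 2). A second probe set for Prdx2 had 30.6 and 42.3, 1.38-fold higher in sample 2, and the other one had 0.95 and 1.1, far below the control level. No direction can be stated for Prdx1 or Prdx2 from these probe sets together.

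Thioredoxin differed little between the samples, while its inhibitor had the higher signal in sample 2. Of the 6118 probe sets compared with Sod1 above, 60.0% were at least as far apart as that of Txn1 (log2 difference 0.31). Txn1, the small cytosolic protein that reduces peroxiredoxins and other proteins, had 471 and 380, 1.24-fold higher in sample 1 (mean log2 8.73 ± 0.22, SD, n = 2). Txnip, an arrestin-like protein that binds thioredoxin and restrains glucose uptake, had 69.0 and 144, 2.09-fold higher in sample 2 (mean log2 6.64 ± 0.75, SD, n = 2). The weaker Txnip probe set gave 17.6 and 29.1, at least 1.46-fold higher in sample 2. Txnip was the only one of the 10 genes with 2 detected probe sets (above the control level in each sample) that pointed the same way.

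Hmox1 and Nfe2l2 differed little. Hmox1, which breaks down haem and is induced by oxidants, had 103 and 84.0, 1.22-fold higher in sample 1 (mean log2 6.54 ± 0.21, SD, n = 2). Nfe2l2 had 40.8 and 52.4, 1.28-fold higher in sample 2 (mean log2 5.53 ± 0.26, SD, n = 2). Both differences were below the spread of log2 signals between the 2 samples over all 6118 probe sets above the control level, an SD of 0.58.

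By their strongest probe sets, 4 of the 10 genes were at least 2-fold apart, against 20.7% of the 4707 genes above the control level. Sod1 and Prdx2 were higher in sample 1, a direction that 11.0% of those genes took, and Prdx1 and Txnip were higher in sample 2, which 9.62% did. Only Sod1 was clear of the 2-fold line. Prdx1 and Txnip fell inside it with the deposited scaling (1.97-fold and 1.96-fold), which left 2 genes higher in sample 1 and 0 higher in sample 2, and Prdx2 fell inside it with median-centring (1.87-fold). By probe set, 5 of 13 were at least 2-fold apart, against 19.9% of the 6118. Of these, 3 were at least 2-fold higher in sample 1, against 10.5% of all, and 2 at least 2-fold higher in sample 2, against 9.40%. The median difference over the 10 genes was 0.16 on the log2 scale, and over the 4707 genes it was 0. Without a floor, the median over the 6118 probe sets was itself 0.079 with quantile normalization, 0.18 as deposited and 0.046 with median-centring. The probe sets behind the values of Prdx1, Prdx2, Txnip and Cat carry a suffix (_s, _g or _f) that the manufacturer gives to probe sets whose probes are shared or were chosen by relaxed rules. Without suffixed probe sets Sod1 and the weaker Prdx1 probe set remained at least 2-fold apart, both higher in sample 1.

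**Figure D2:**
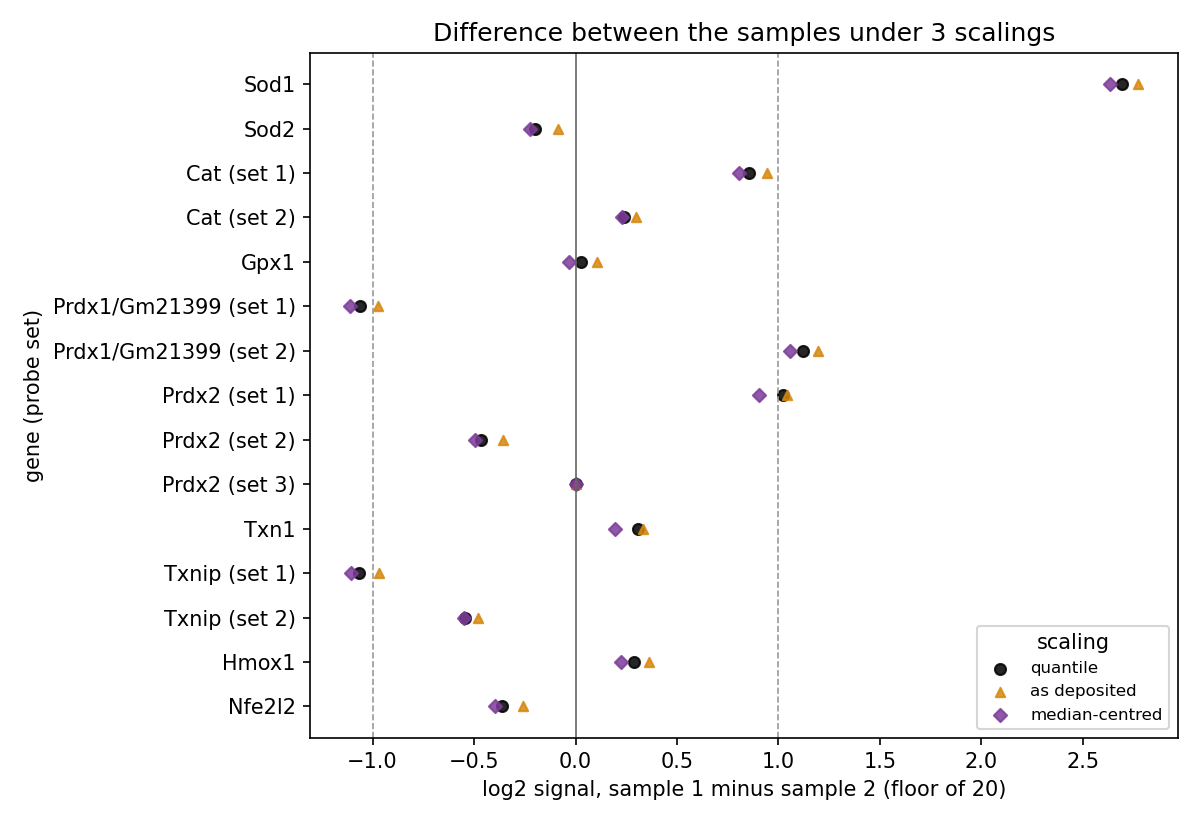
Difference between the samples (log2 signal of sample 1 minus sample 2, floor of 20) for the 15 probe sets under 3 scalings, with dashed lines at a 2-fold difference. Sod1 lies at 2.69 with quantile normalization, and Prdx1, Prdx2 and Txnip lie close to the 2-fold lines, which the scaling moves them across.

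**Figure D3:**
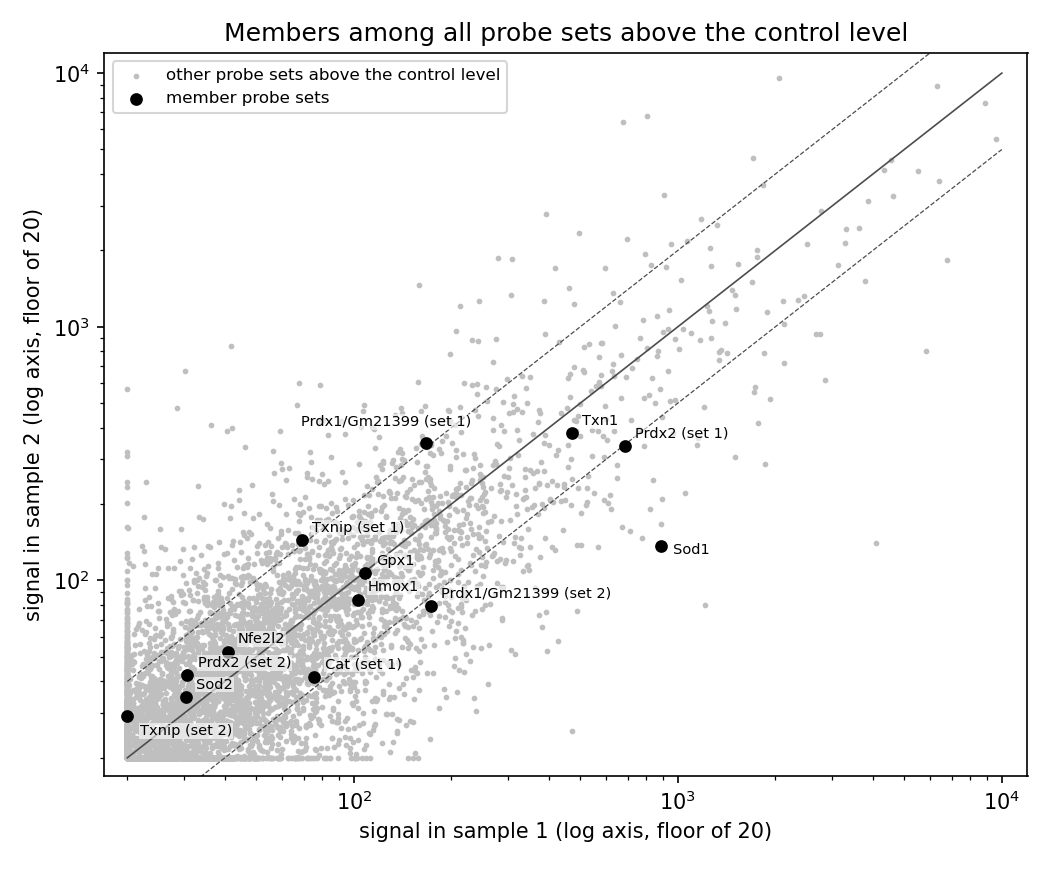
Signals in sample 1 and sample 2 on log axes for the 6118 probe sets that passed the control level in each (grey) and the 13 member probe sets among them (black), with lines at equality (solid) and 2-fold (dashed). Most members lie inside the cloud of other probe sets, and Sod1 lies at its lower right edge.

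The upstream sequences of Sod1, Txnip and Prdx1 are shown because these 3 genes had the largest differences in either direction by a single probe set. They are the 250 bases before the transcription start, from RefSeq on build GRCm38.p6, read 5′ to 3′ on the gene's own strand, which is the plus strand for all 3. Sod1 lies at chr16:90220512-90220761, Txnip at chr3:96557707-96557956 and Prdx1 at chr4:116685349-116685598. Capitals mark matches on either strand to 4 motifs: the antioxidant response core TGACNNNGC, to which Nfe2l2 binds with a small Maf partner, the AP-1 type element TGACTCA, the forkhead element GTAAACA, to which FoxO factors bind, and the TATA box TATAAA.
Sod1: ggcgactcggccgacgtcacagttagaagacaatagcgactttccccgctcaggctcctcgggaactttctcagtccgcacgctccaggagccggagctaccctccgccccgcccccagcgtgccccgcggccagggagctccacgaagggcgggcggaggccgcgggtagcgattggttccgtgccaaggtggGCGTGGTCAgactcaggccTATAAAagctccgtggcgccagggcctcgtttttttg
Txnip: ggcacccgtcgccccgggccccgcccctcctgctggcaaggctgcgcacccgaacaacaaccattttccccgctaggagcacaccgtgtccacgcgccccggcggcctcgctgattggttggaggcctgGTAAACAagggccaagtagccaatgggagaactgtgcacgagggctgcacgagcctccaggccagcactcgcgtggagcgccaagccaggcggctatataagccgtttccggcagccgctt
Prdx1: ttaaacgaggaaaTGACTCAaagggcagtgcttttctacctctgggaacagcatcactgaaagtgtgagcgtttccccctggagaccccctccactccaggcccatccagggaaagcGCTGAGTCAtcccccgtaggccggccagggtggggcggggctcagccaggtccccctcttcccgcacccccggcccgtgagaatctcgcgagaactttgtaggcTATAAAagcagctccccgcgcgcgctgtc

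A promoter sequence was matched for 9 of the 10 genes, all but Hmox1. The antioxidant response core was found upstream of 3 of the 9 (Nfe2l2, Prdx1 and Sod1), against 10.4% of 21263 upstream sequences of protein-coding genes. In Sod1 it spans bases 56 to 48 before the start, and in Prdx1 bases 133 to 125, both on the opposite strand. The Prdx1 match contains an AP-1 type element, and a second such element lies at bases 237 to 231. Of the 9, only Prdx1 held an AP-1 type element, against 4.06% of all, and only Txnip held the forkhead element, against 2.62%. The exact letters TATAAA were found upstream of Txn1 (bases 160 to 155), Prdx1 (29 to 24) and Sod1 (37 to 32), against 11.6%. The printed Txnip sequence holds tatataag near its end, which is not an exact match and was not counted. The E-box CACGTG was found upstream of 0 of the 9, against 6.63%. Members with the antioxidant response core did not share a direction: Sod1 was higher in sample 1, Nfe2l2 was 1.28-fold higher in sample 2, and the Prdx1 probe sets disagreed. A match describes letters in this window and not binding.

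The wider redox pathways were described from 10 lists that leave out the 10 genes above. Of their 100 measured genes, 71 passed the control level in both samples, against 57.0% of all genes. Of the 71, 19 were at least 2-fold higher in sample 1 and 7 at least 2-fold higher in sample 2, against 11.0% and 9.62% of all genes above that level. Where neither signal was under the floor, 20 of 58 redox genes were at least 2-fold apart, against 22.6% of all such genes. The median difference over the 71 genes was 0.30 on the log2 scale, 0.17 without suffixed probe sets and 0 with a floor of 50.

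Of 11 genes listed under the peroxiredoxin and thioredoxin system and above the control level, 7 had the higher signal in sample 1 and 4 in sample 2. Over all 4707 genes above that level, these numbers were 2219 and 2039. At least 2-fold higher were 5 of the 11 in sample 1 and 1 in sample 2, against 11.0% and 9.62% of the 4707 genes. Of those 5, Txnl4a and Txndc12 were under the floor in sample 2. Their median difference was 0.54, and 0 with a floor of 50. Prdx3, the peroxiredoxin of mitochondria, had 116 and 34.4 (3.38-fold), and Msrb1, which repairs oxidized methionine, had 159 and 52.9 (3.01-fold). The thioredoxin reductases, which recharge thioredoxin with NADPH, disagreed. Txnrd1, the cytosolic one, had 32.4 and 69.2, 2.14-fold higher in sample 2. Txnrd3 had 527 and 259 by 1 probe set and 4.2 and 14.9 by another. Txn2, the mitochondrial thioredoxin, had 96.6 and 109, and Txndc9 had 189 and 130. Srxn1, the sulfiredoxin that revives over-oxidized peroxiredoxins, was the 1 measured gene of this list not above the control level.

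Of 6 other genes that act on superoxide, peroxide or copper and were above the control level, 3 had a positive difference, 2 a negative one and 1 none, with both signals under the floor. At least 2-fold higher were 2 of them in sample 1 and 0 in sample 2, against 11.0% and 9.62% of all genes above that level. Park7, the DJ-1 protein that protects against oxidants, had 329 and 134 (2.45-fold), and Atox1, a chaperone that hands copper to transport pumps, had 201 and 75.2 (2.68-fold). Gpx4, which reduces lipid peroxides, had 59.2 and 34.6 (1.71-fold). Those higher in sample 2 were Ccs, given above, and Gpx2, a glutathione peroxidase known from the gut, with 33.9 and 38.8. Gpx5, the gene with both signals under the floor, passed the control level by 1 of 2 probe sets, with 18.8 and 13. Sod3, Gpx3 and Gpx7 were not above the control level in both samples.

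Genes of glutathione synthesis and recycling went both ways, 1 at least 2-fold higher in sample 2 and 2 at least 2-fold higher in sample 1. Over all genes above the control level, these shares were 9.62% and 11.0%. Gclm, the modifier subunit of the rate-limiting glutamate-cysteine ligase, had 46.0 and 151, 3.29-fold higher in sample 2. Its catalytic partner Gclc had 9.95 and 39.5, below the control level in sample 1 and at least 1.98-fold higher in sample 2. Gss, which completes glutathione, had 59.3 and 25.4 (2.33-fold higher in sample 1) by 1 probe set and 22.2 and 25.6 by another. Gsr, which regenerates glutathione, had 56.1 and 23.8, 2.35-fold higher in sample 1. The thiol transferase Glrx had 82.5 and 47.6, and the amino acid transporter subunit Slc3a2 had 146 and 223. The list had 5 genes above the control level and a median difference of 0.79, which was -0.20 without suffixed probe sets.

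Glutathione S-transferases attach glutathione to reactive compounds. Among 13 of them above the control level, 4 were at least 2-fold higher in sample 1 and 1 in sample 2. The shares over all genes above that level were 11.0% and 9.62%. Of the 4, Gstt2 was under the floor in sample 2, with 41.55 and 16.5. Gstm1 had 1006 and 819 by its strongest probe set, and 107 and 186, the opposite direction, by another. Gstm3 had 213 and 156, and 64.0 and 69.6 by another probe set. For neither gene can a direction be stated. Gstm5 had 897 and 439 (2.04-fold) by its strongest probe set, and 24.6 and 61.2, also the opposite direction, by another. These mu-class genes are close in sequence, and their probe sets may share transcripts. Gsto1 had 82.6 and 21.8 (3.78-fold), and Mgst1 had 48.6 and 22.7 (2.14-fold), while Gstk1 had 27.0 and 74.8, 2.77-fold higher in sample 2.

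The list of other Nfe2l2 targets, meaning those not placed in the lists above, held genes that differed in both directions. Whether Nfe2l2 activity differed between the samples was not tested. Of 7 above the control level, 5 had a negative difference and 2 a positive one. In each direction 1 was at least 2-fold apart, against 11.0% (sample 1 higher) and 9.62% (sample 2 higher) of all genes above that level. The gene higher in sample 1 was Mt1, under the floor in sample 2, with 46.85 and 17.9. The median was -0.80, but -0.38 with an offset of 32, -0.37 without suffixed probe sets and -0.050 with a floor of 50. Fth1, the ferritin heavy chain that stores iron, had 919 and 1722 (1.87-fold), and its other probe set had 144 and 186. The aldehyde dehydrogenase gene Aldh2 had 161 and 464, 2.87-fold higher in sample 2. Other Aldh2 probe sets had 68.3 and 200, and 31.1 and 25.9. The metallothionein gene Mt2 had 191 and 108. Nqo1, a much used readout of Nfe2l2 activity, had 8.35 and 8.45, below both control levels.

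Regulators of Nfe2l2 and its relatives had a median difference of -0.51, and -0.065 with a floor of 50, over the 6 genes above the control level. Of these, 5 were higher in sample 2, against 2039 of all 4707 genes above that level. At least 2-fold higher in sample 2 were 2 of them, against 9.62% of those genes. Of the 2, Mafk was under the floor in sample 1, with 12.5 and 42.15. Nfe2, the blood-cell relative of Nfe2l2, had 213 and 442 (2.07-fold), Bach1, a repressor of Hmox1 and other Nfe2l2 targets, had 113 and 184, and Mafg, a small Maf partner, had 43.7 and 54.7. Keap1 had 6.05 and 7.05, below both control levels.

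NADPH supply and oxidant-producing genes were at least 2-fold apart only with higher signals in sample 1. Of 9 genes of NADPH supply above the control level, 2 were so, and the median difference was 0.57, and 0 with a floor of 50. Of the 2, Idh2 was under the floor in sample 2. The pentose phosphate enzyme gene Taldo1 had 206 and 59.5 (3.45-fold), Rpia had 129 and 78.2, and Tkt had 111 and 116. Of 6 oxidant producers above it, 3 were so, with a median of 0.98. Over all genes above the control level, 11.0% were at least 2-fold higher in sample 1 and 9.62% in sample 2. Mpo, the myeloperoxidase that makes hypochlorous acid from hydrogen peroxide, had 1862 and 288 (6.47-fold), the oxidase subunit gene Cyba had 207 and 63.4 (3.27-fold) by its stronger probe set and 103 and 67.7 (1.52-fold) by the other, and Rac1 had 467 and 199 (2.35-fold). Rac2, the blood-cell Rac of the oxidase, had 212 and 243. Cybb, the catalytic subunit, had 16.7 and 3.45 and was not above the control level in sample 2.

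Of 7 stem cell stress regulators above the control level, 0 were at least 2-fold higher in sample 1 and 1 at least 2-fold higher in sample 2, against 11.0% and 9.62% of all genes above it, with a median of 0.071. Foxo4 had 142 and 138, Foxo3 had 112 and 76.3 (1.47-fold), and the kinase gene Stk11 had 125 and 149. Atm had 4.4 and 11.6 and was not above the control level in sample 1. Hif1a, which acts when oxygen is low, had 285 and 228, and 233 and 126 (1.85-fold) by its other probe set. The stress kinase gene Mapk14 had 96.2 and 61.3 (1.57-fold). The cell cycle inhibitor gene Cdkn1a had 33.4 and 75.4, 2.25-fold higher in sample 2, and 4.4 and 76.0 by its other probe set. Of the Txnip relatives and partners, 2 of 8 were measured, and Mlx, a partner of the glucose-sensing factors that act on Txnip, had 60.5 and 41.0.

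**Figure D4:**
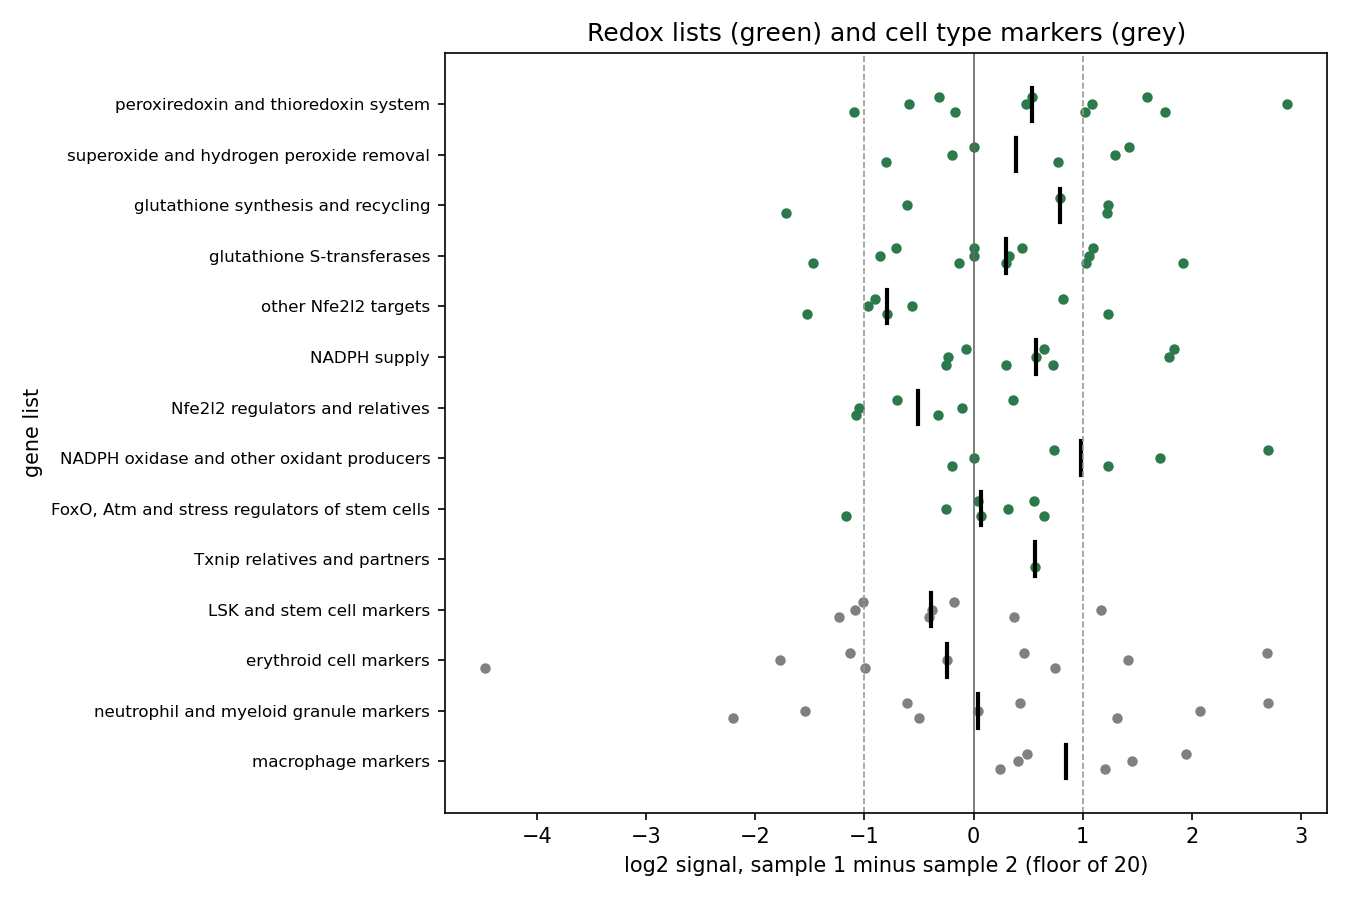
Difference between the samples (log2 signal of sample 1 minus sample 2, floor of 20) for each gene above the control level in 10 redox lists (green) and 4 cell type marker lists (grey), with list medians as black bars and dashed lines at a 2-fold difference. Medians run from -0.80 for other Nfe2l2 targets, which is -0.050 with a floor of 50, to 0.98 for oxidant producers.

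Lists of blood cell type markers also held genes that differed between the samples, and these lists do not separate mature cells from progenitors. Over all 8251 genes, 57.0% were above the control level. Of 10 macrophage markers, 6 were above the control level, and all 6 had a positive difference by their strongest probe sets. Over all 4707 genes above that level, 2219 had a positive difference. Among the 6 markers, Cd68, C1qb and C1qc were under the floor in sample 2. Further probe sets of Cd68 (0.75 and 1.2) and C1qb (1.4 and 3.95) were below both control levels. Csf1r had 108 and 39.5 by its strongest probe set, and 34.8 and 37.4, the opposite direction, by the other. Cd14 had 152 and 65.85. Summed signals over the measured list were 471 in sample 1 and 196 in sample 2. Adgre1 (F4/80), Marco and Mrc1 were below the control level in both samples, and C1qa, with 6.05 and 10.4, was below it in sample 1. Lyz2 had 104 and 26.9 by its strongest probe set, and 2.15 and 4.1, below both control levels, by another. Of 12 neutrophil and myeloid granule markers 9 were above the control level, and the summed signals were 3181 and 1872. Mpo alone gave 1862 and 288 of these sums. The list median was 0.037, and -0.23 without Mpo, so the list has no direction here. In that list Mpo, Elane and Ctsg were at least 2-fold higher in sample 1, while Camp and Ngp were at least 2-fold higher in sample 2. Prtn3 had 459 and 342, and S100a8 had 301 and 459. Of 13 measured erythroid markers 9 were above it, 4 higher in sample 1 and 5 higher in sample 2, with summed signals of 1153 and 1365. Hba-a1 had 30.1 and 670 and Car1 488 and 75.9, while Alas2 had 3.45 and 3.85. Klf1 had 215 and 80.5, and Rhag had 42.05 and 92.25. Of 9 measured LSK and stem cell markers 8 were above the control level, and the summed signals were 545 and 761. Flt3 had 137 and 322, Cd48 had 101 and 44.85, and Lmo2 had 146 and 165. The part of these cell types in the differences of Sod1, Prdx2, Cat and Txnip was not tested. In bulk RNA a smaller share of cells expressing a gene and less RNA per cell cannot be told apart.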

How the data were processed

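RNA from 2 samples of 1 group was hybridised to an Affymetrix mouse expression array after 2 rounds of amplification, per the labels' protocols. The authors deposited linear signal intensity values, 1 per probe set for 12488 probe sets. Both deposited columns have a mean of 53.94, and no source used here gives the software that made them. The 2% trimmed means differed by 6.10%, so both arrays were quantile-normalized, then floored at 20 and put on a log2 scale (Python 3.11.15, pandas 2.3.3, numpy 2.4.6). In each sample 57.7% of the values lay under the floor. Control probe sets (66) were left out of counts.

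Genes were named from the platform's annotation table. Of 12422 probe sets, 10833 named 1 gene, 396 several and 1193 none. Probe sets that name several genes entered no gene, except those of Prdx1. A gene was represented by its strongest probe set (mean of both log2 signals), and a gene was above the control level where any of its probe sets was. Differences are log2 of sample 1 minus sample 2, with no test, since 1 group of 2 samples has no contrast. The members and lists were chosen with earlier results of these data known. From each list the text names the 3 strongest genes and those at least 2-fold apart with both signals above the floor. Other genes named were chosen after their values were seen. With 2 samples no likeness between genes' patterns could be measured. The steps were tested on simulated data. The alternatives were 2 other scalings, a floor of 50 or none, an offset of 32, other control levels, other gene values, each sample alone, and leaving out suffixed probe sets or Mpo. Positions are given only for the printed upstream sequences, from RefSeq on GRCm38.p6, because the array's annotation table names no build.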

Additional observations from a re-analysis of the deposited data

How the results depend on the processing

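The number of members 2-fold apart was 4 as reported, and also with a floor of 50, with no floor and with the highest bacterial control as the level. It was 3 with median-centring, 2 with the deposited scaling, 2 without suffixed probe sets, 1 with an offset of 32 and 1 when all probe sets of a gene were averaged. Members 2-fold higher in sample 1 numbered 2, and 1 with median-centring, with the offset or with the mean over probe sets. Members 2-fold higher in sample 2 numbered 2, and 0 with the deposited scaling, the offset, the mean over probe sets or without suffixed probe sets. The offset and a higher floor shrink differences of weak signals by construction. The gene value of Prdx1 turned from -1.06 to 0.030 with the mean over its probe sets and to 1.12 without the suffixed one, and that of Prdx2 turned from 1.02 to -0.47 without suffixed probe sets. Without suffixed probe sets another probe set supplied each value, and the mean joins probe sets of opposite sign. In the redox lists, 19 genes were 2-fold higher in sample 1, and 11 with a floor of 50 or with the offset, while 7 were 2-fold higher in sample 2, and 3 with the floor of 50 and 2 with the offset. Of the 100 measured redox genes, 40 were above the organ gene level, chosen after seeing the data, against 22.7% of the 8251 genes. In a single sample, 10 members in either and 73 to 85 redox genes were above the control level. The share of all genes above it in a single sample is not given here, so these counts have no comparison. The median difference of the members ran from 0.027 to 0.22 over the alternatives. No paired analysis was possible because there is only 1 group. With 2 arrays, no detection calls and no probe-level values, signals near the control level are the least certain.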

Other observations

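Some redox genes could be read only through probe sets that also name a pseudogene or related gene, and these stood outside the counts of genes and of list members, except that Prdx1 was kept among the 10 genes. The probe sets naming Rbx1, a subunit of the ubiquitin ligase that Keap1 uses, and Rbx1-ps had 158 in sample 1 and 1466 in sample 2 (9.26-fold), and 53.1 and 84.8 by the other one. Those naming the glutaredoxin gene Glrx3 and Gm12669 had 634 and 637, and 105 and 161. The one naming the ferritin light chain gene Ftl1 and Ftl1-ps2 had 587 and 370, 1.59-fold higher in sample 1, where Fth1, the heavy chain gene, had 919 and 1722. Txnl4a, which encodes a thioredoxin-fold protein of the spliceosome, had 147 and 19.9, at least 7.34-fold higher in sample 1. Idh2, the NADPH-making isocitrate dehydrogenase of mitochondria, had 71.4 and 13.4, at least 3.57-fold higher in sample 1. These genes were chosen after their values were seen.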
